A study of Capitella teleta with 12 samples.

Results

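The gene models described here are the most abundant transcripts of early cleavage in the annelid *Capitella teleta* whose deposited counts gave stage levels within a narrow range from the 8-cell to the 32-cell stage. Members were gene models with a count above 512 in at least 1 of 12 single embryos, and with the highest of the 3 stage levels less than 1.5 times the lowest. Stage levels were in CPM (counts per 1000000 counts), the summed counts of a stage times 1000000 over the summed totals of its embryos. The rule found 121 members among 32415 gene models, 0.373% of the table and 1.02% of the 11854 gene models with at least 10 counts over all embryos. Both values that chose the members, the counts and the stage contrast, came from these embryos, so the levels and stage ratios of the members are given as a description. Counts in the table stop at 1024, and for the 6 members that reach this limit, and in part for others near it, a narrow range does not show a steady level.

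Whole embryos were sequenced one by one with CEL-Seq, 4 of them with 8 cells, 3 with 16 cells and 5 with 32 cells. CEL-Seq captures polyadenylated RNA by its 3′ end, marks it with a barcode for the embryo and, here, with a short random tag called a UMI. Reads that share a tag and a gene model then count as 1 molecule, which removes duplicates from amplification. The labels give each embryo its stage and a number, and name no treatment or genotype that differs between stages. Nothing in the labels says whether embryos of a stage came from different broods, so tests between stages measure the spread between these embryos. Embryos of a stage differed by more than sampling noise in every pair, with a chi-square per degree of freedom between 1.51 and 2.17, and each was counted as its own replicate. Total counts ranged from 236321 to 491733 per embryo, with a median of 320464. They averaged 343442 in 8-cell, 409154 in 16-cell and 313940 in 32-cell embryos.

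An animal embryo begins cleavage with messenger RNA and protein laid down in the egg by the mother, and the first divisions partition this store among the cells while the embryo's own genes are switched on. In spiral-cleaving annelids such as *C. teleta*, these divisions also set up the quartets of micromeres and the larger macromeres from which the body regions derive. Very abundant maternal transcripts in animal eggs commonly encode parts of the translation machinery, the cytoskeleton, the mitochondria and the chromatin. The count table and the annotation used here give the members as numbers without a product, so no role is assigned to any member. Libraries were whole embryos without added scaling to an external standard, so a CPM is a share of the counts of an embryo, and fewer cells holding a transcript cannot be told apart from less of it in each cell.

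Every member was detected in every embryo. The lowest count of any member in any embryo was 150, and the mean count over the 12 embryos ranged from 314 for gene model 139082 to 1023 for gene model 218805, with a median of 459 over the members. All 121 passed the minimum of 10 summed counts, which any gene model above 512 in an embryo must. Counts above 512 were found in all 12 embryos for 21 members and in 1 embryo for 23 members. The number of members above 512 in an embryo ranged from 29 members in 32-cell replicate 5, the smallest library, to 108 in 16-cell replicate 3, the largest. The highest counts of the members nearest inside the threshold were 515 in gene model 184307 and 519 in gene models 175223 and 21877, and the gene models nearest outside it reached 510 in 228073 and 509 in 195742.

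**Figure D1:**
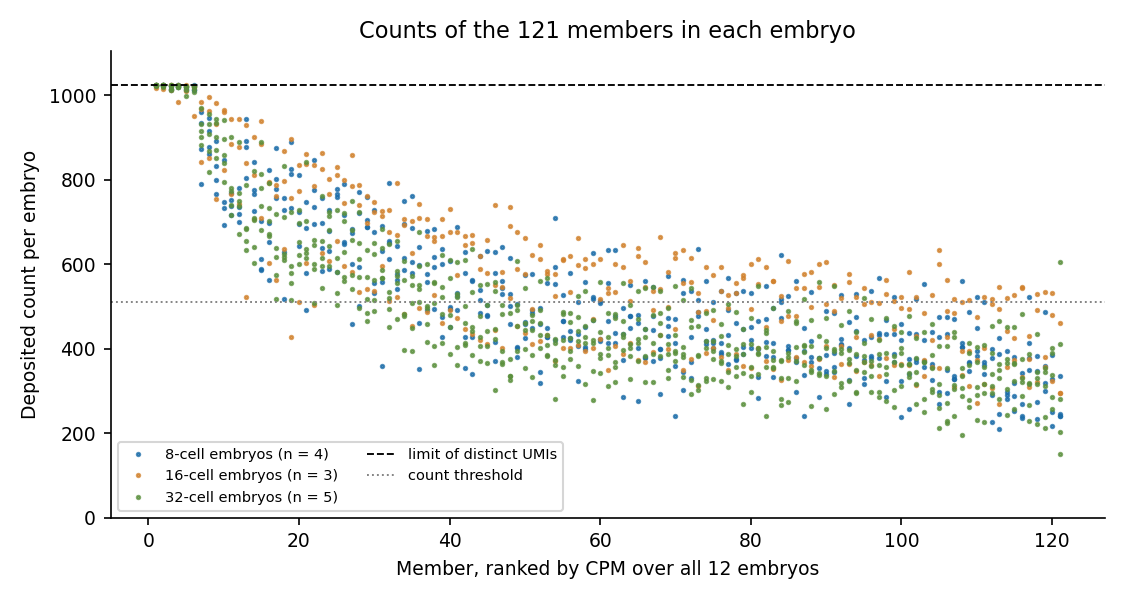
Deposited count of each member (vertical axis) in each of the 12 embryos, with members ordered along the horizontal axis by CPM over all embryos and points colored by stage. The dashed line is the limit of 1024 distinct UMIs and the dotted line the count threshold of 512. The first 6 members lie along the limit in every embryo, and the others spread downward to a lowest count of 150.

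Together the members took between 16.2% and 21.6% of the counts of an embryo. The mean share was 18.9% ± 1.72 (SD, n = 4) in 8-cell, 17.4% ± 1.01 (SD, n = 3) in 16-cell and 19.2% ± 1.57 (SD, n = 5) in 32-cell embryos. The ranges of the stages overlapped, from 16.5% to 20.4% in 8-cell, from 16.2% to 18.1% in 16-cell and from 17.3% to 21.6% in 32-cell embryos. Without the 6 members at the UMI limit, described next, the other 115 took 16.7% of the counts, on average over the stages, compared with 18.5% for all 121. The part of the 6 is held down by the limit. It lay between 1.25% and 2.59% of an embryo's deposited total, and between 6.87% and 12.5% of its total after the conversion described below.

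No count in the table exceeded 1024, the number of different UMIs that 5 bases can spell. The UMI length is inferred here from that limit. A count of distinct UMIs rises ever more slowly as it nears the limit, because new molecules more often carry a UMI already seen. The limit itself was reached 28 times in the table, every time by 1 of 6 members, gene models 143553, 183463, 204161, 218805, 219056 and 228595. They were also the 6 most abundant members by CPM over all embryos. Each of them stood at 952 or higher in every embryo.

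Gene model 218805 had counts of 1024, 1023, 1024 and 1024 in 8-cell, 1017, 1024 and 1024 in 16-cell and 1022, 1024, 1024, 1024 and 1024 in 32-cell embryos. Gene model 228595 had 1024, 1023, 1024 and 1024, then 1016, 1024 and 1024, then 1021, 1024, 1024, 1024 and 1024 in the same order of embryos. Both were at the limit in 9 of 12 embryos, and the stages overlapped at the limit itself. Gene model 219056 had 1023, 1016, 1023 and 1014 in 8-cell, 1013, 1024 and 1024 in 16-cell and 1013, 1024, 1023, 1024 and 1015 in 32-cell embryos. Gene model 143553 reached the limit in 4 embryos and had its lowest count, 984, in 16-cell replicate 1. In gene model 204161 only 16-cell replicate 3 was at the limit, and the lowest count was 999 in 32-cell replicate 1. Gene model 183463 reached the limit only in 8-cell replicate 1 and had its lowest count, 952, in 16-cell replicate 1. That embryo was the lowest of the 12, or level with the lowest, for 5 of these 6 members.

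Levels in CPM of these 6 members were therefore set by the total of the embryo. A count at the limit amounted to 4333 CPM in the smallest library and to 2082 CPM in the largest. Gene model 218805 measured 3072 ± 567 CPM (SD, n = 4) in 8-cell, 2584 ± 598 (SD, n = 3) in 16-cell and 3364 ± 660 (SD, n = 5) in 32-cell embryos. The stage ratio, the highest over the lowest stage CPM, lay between 1.30 and 1.33 in all 6, beside a ratio of 1.30 between the highest and the lowest mean total of the stages. For these 6 gene models the counts give a lower limit on abundance and no measure of a change between stages.

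The next 4 members by CPM were below the limit in every embryo. Gene model 219719 had counts of 790, 934, 962 and 874 in 8-cell, 842, 984 and 967 in 16-cell and 916, 971, 933, 901 and 882 in 32-cell embryos. Gene model 221075 had counts of 916, 861, 947 and 879, then 853, 963 and 997, then 868, 957, 933, 909 and 820. In both, the stages overlapped, and the embryo with the largest total of a stage had the highest count, except in gene model 219719 at the 16-cell stage. Gene model 228675 had 800, 766, 893 and 833, then 755, 982 and 932, then 853, 936, 945, 872 and 902. Its level was 2453 ± 374 CPM (SD, n = 4) in 8-cell, 2210 ± 276 (SD, n = 3) in 16-cell and 2954 ± 548 (SD, n = 5) in 32-cell embryos. Gene model 153047 had 734, 747, 848 and 693, then 824, 966 and 960, then 840, 941, 896, 859 and 796. Its 8-cell counts were the low ones, with only the deepest 8-cell embryo above any embryo of the later stages. In CPM the 8- and 16-cell embryos overlapped, at 2242 ± 281 (SD, n = 4) and 2290 ± 339 (SD, n = 3). The 32-cell embryos measured 2819 ± 380 CPM (SD, n = 5).

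Over all members the stage ratio ranged from 1.02 to 1.49 with a median of 1.19. It was under 1.2 in 64 members and under 1.1 in 24. The upper edge of the range was fixed by the rule. Members nearest to it were gene models 21360 with a ratio of 1.49, 220905 with 1.46 and 225392 with 1.42, and the nearest gene models outside it were 20984 with 1.53, 148920 with 1.60 and 171854 with 1.62. Gene model 21360 had counts of 518, 473, 623 and 511 in 8-cell, 326, 465 and 526 in 16-cell and 330, 372, 374, 282 and 267 in 32-cell embryos. Its level was 1573 ± 199 CPM (SD, n = 4), then 1070 ± 30 (SD, n = 3), then 1046 ± 111 (SD, n = 5), with the 8-cell embryos the high ones. Gene model 220905 moved the other way, at 797 ± 38 CPM (SD, n = 4) in 8-cell, 1155 ± 123 (SD, n = 3) in 16-cell and 1151 ± 110 (SD, n = 5) in 32-cell embryos. Gene model 225392 again was highest at the 8-cell stage, at 1559 ± 109 CPM (SD, n = 4), with 1079 ± 77 (SD, n = 3) and 1180 ± 101 (SD, n = 5) at the later stages.

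In deposited counts, the lowest of the 3 stages was the 16-cell stage in 76 members, the 8-cell stage in 35 and the 32-cell stage in 10. The 16-cell stage was thus lowest in 62.8% of the members, compared with 21.8% of the 11854 gene models tested. It was also the stage with the largest mean total. The highest stage was the 32-cell stage in 60 members, the 8-cell stage in 52 and the 16-cell stage in 9.

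The test between stages used the contrast that chose the members, and its counts are given as a description only. In edgeR's quasi-likelihood F test over the 3 stages, 11 of 121 members had a Benjamini-Hochberg adjusted p under 0.05, beside 17.2% of all gene models tested. Between the 8- and 16-cell stages 12 members passed, 1 higher and 11 lower at the 16-cell stage, beside 9.46% of all gene models (5.54% higher and 3.91% lower). Between the 8- and 32-cell stages 15 members passed, 10 higher and 5 lower at the 32-cell stage, beside 20.1% of all (11.1% higher and 8.97% lower). With DESeq2 size factors in place of TMM scaling, the same count of 15 was made of 12 higher and 3 lower. Beside it, 20.4% of all gene models passed (1421 higher and 995 lower). Between the 16- and 32-cell stages 0 members passed in edgeR, beside 2.21% of all (1.74% higher and 0.472% lower). In DESeq2's Wald test 0 passed as well, beside 1.78% of all.

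These counts and their place beside the background depended on the embryos and the processing. Without 8-cell replicate 3, 19 members (15.7%) were called across the stages, beside 13.2% of all gene models. On converted UMI numbers 26 members (21.5%) were called, beside 17.6% of all, and with DESeq2's likelihood ratio test 26 (21.5%), beside 13.3% of all, so that the order of these shares was opposite to that of the main test. Between the 8- and 16-cell stages 19 members (15.7%) passed without 8-cell replicate 3, 0 of them higher. Beside them, 7.24% of all passed (446 higher and 389 lower). The number lay between 4 and 6 (3.31% to 4.96%) without 8-cell replicate 1 or 4 or without any 1 of the 16-cell replicates, beside 6.38% to 8.31% of all. Between the 8- and 32-cell stages 26 members (21.5%) passed without 8-cell replicate 2, beside 18.8% of all. The direction turned in that comparison without 8-cell replicate 3, where 3 members were higher and 12 lower. Beside them, 934 of the 11541 gene models tested were higher and 855 lower (15.5% in all). It also turned on converted UMI numbers, where 13 members were higher and 16 lower. Beside them, 1310 of 11854 gene models were higher and 1075 lower (20.1% in all). Between the 16- and 32-cell stages 1 member (0.826%) passed without 32-cell replicate 2, beside 2.17% of all.

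The member called higher at the 16-cell stage was gene model 220905, with a log2 fold change over the 8-cell stage of 0.50 (SE 0.13, edgeR adjusted p = 0.012). Gene model 21360 had the log2 fold change farthest below 0, at -0.59 (SE 0.14, edgeR adjusted p = 0.0073). The median log2 fold change over the members was -0.14 from the 8- to the 16-cell stage and 0.19 from the 16- to the 32-cell stage, beside 0.08 and -0.0013 over all gene models tested. From the 8- to the 32-cell stage it was 0.07, beside 0.09 over all. On converted UMI numbers these medians of the members were -0.03, 0.07 and 0.01 in the same order. Without 8-cell replicate 3 the median from the 8- to the 16-cell stage was -0.24, and that from the 8- to the 32-cell stage changed sign, to -0.02.

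The rule set no condition on how counts follow depth within a stage, although its count threshold was passed more often in the deeper libraries, so what follows is a description too. In each stage the count of every gene model was compared between the embryo with the largest total and the embryo with the smallest. At the 8-cell stage the totals of these embryos differed 1.58-fold, and the counts of the members differed by a median of 1.27. At the 16-cell stage the totals differed 1.57-fold and the members 1.48-fold, and at the 32-cell stage 1.73-fold and 1.48-fold. The ratio of a member's counts was below the ratio of the totals in 98, 91 and 104 of 121 members at the 3 stages in turn. The gap grew with the level. Among the 36 gene models with a mean count of at least 512 that never reached the limit, all 36 of them members, the median ratios were 1.18, 1.39 and 1.36. Among the 6 members at the limit they were 1.00, 1.01 and 1.00. Less abundant gene models went the other way, and the 1159 with a mean count from 32 to under 64 had median ratios of 1.77, 1.65 and 1.95.

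**Figure D2:**
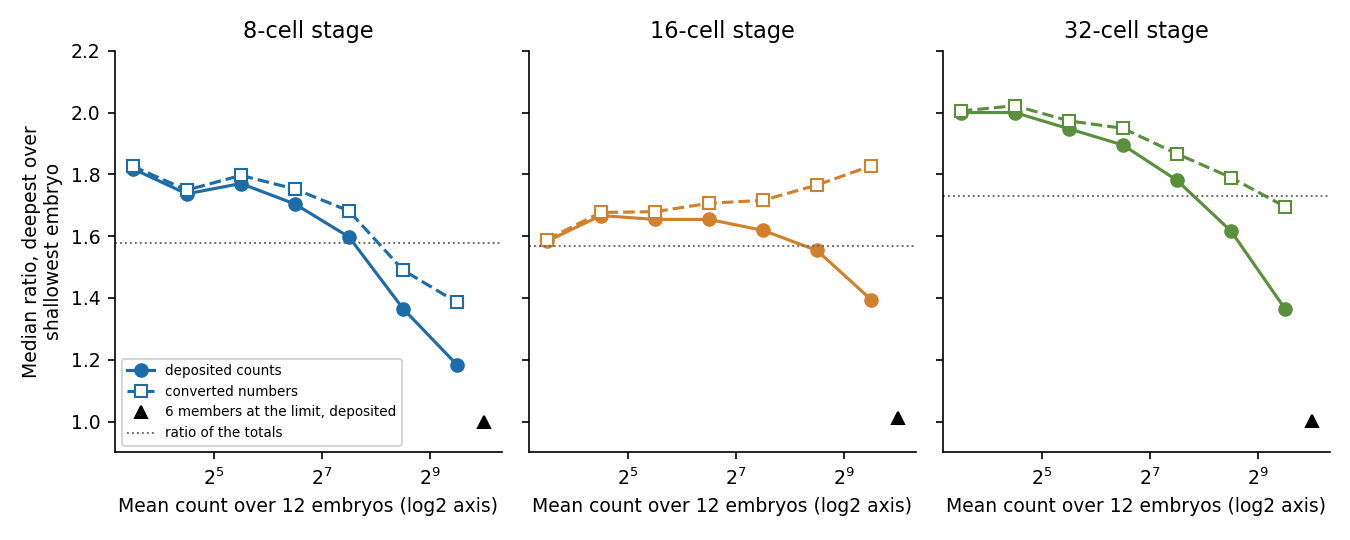
Median ratio of counts between the deepest and the shallowest embryo of each stage (vertical axis) in classes of gene models by mean count (horizontal axis, log2 scale), with filled circles for deposited counts and open squares for converted UMI numbers. The dotted line is the ratio of the totals of these embryos, at 1.58, 1.57 and 1.73, and the triangles are the 6 members at the limit, which are left out of the circles. Deposited counts fall below the dotted line in the classes from a mean of 256 upward, where the members lie.

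The same relation held over the 12 embryos. The members' summed CPM was lower in embryos with larger totals, with a Pearson r of -0.93 and a Spearman rho of -0.88 over 12 embryos. Without the 2 embryos whose totals were farthest from the median, 16-cell replicate 3 and 8-cell replicate 3, r was -0.86 and rho -0.79. For deviations from the stage means r was -0.91 and rho -0.90, and each stage alone held fewer than 6 embryos. The total is the divisor of the CPM as well as the other axis, and no p is given for a sum over members that were chosen on these embryos. Member by member, the CPM had a negative r with the total in 113 of 121 (93.4%), with a median r of -0.46. The share with a negative r was 46.4% among 429 gene models with a mean count of at least 128 and no count above 512, and 39.0% among all gene models tested.

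The deepest embryo of a stage was also most often the lowest in CPM. Of the 4 8-cell embryos, replicate 3 was the lowest in 77 members (63.6%). Of the 5 32-cell embryos, replicate 2, the deepest, was the lowest in 61 members (50.4%), and replicate 5, the shallowest, was the highest in 68 (56.2%). At the 16-cell stage replicate 3, the deepest, was the lowest in 71 members (58.7%). Among all gene models tested these deepest embryos were the lowest in 13.6%, 14.9% and 26.8% for the 8-, 32- and 16-cell stages. On converted UMI numbers they were the lowest in 27, 20 and 22 members in the same order.

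**Figure D3:**
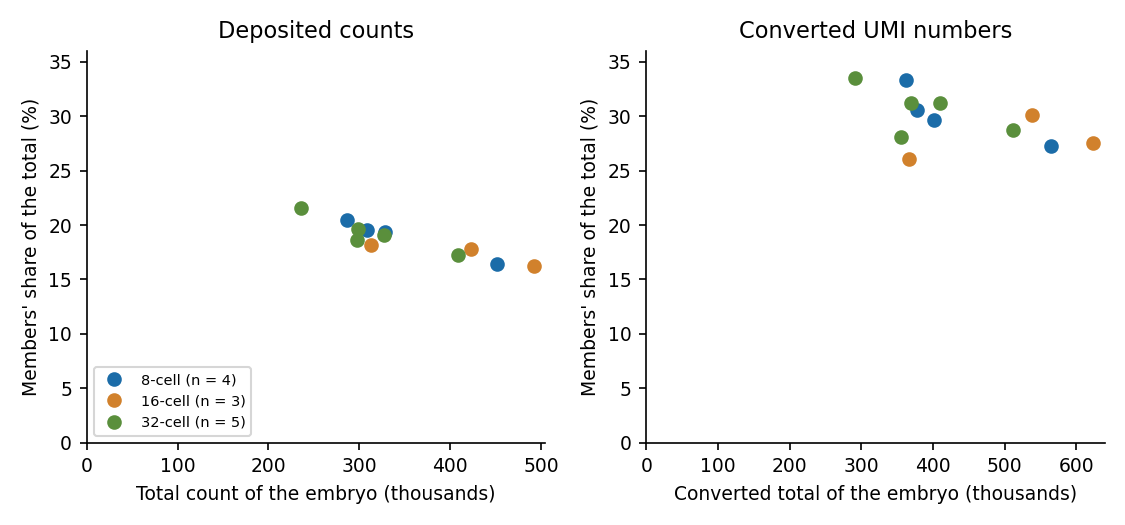
Share of each embryo's total taken by the 121 members (vertical axis, percent) against that total (horizontal axis, in units of 1000 counts), in deposited counts on the left and converted UMI numbers on the right. Each point is 1 embryo, colored by stage. On the left the share falls from 21.6% in the smallest library to 16.2% in the largest, with a Pearson r of -0.93. On the right r is -0.52, with the 6 members at the limit included.

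To see how far the UMI limit bears on these values, every count u was converted to the number of molecules expected to leave u of 1024 UMIs occupied, and counts at the limit were set to 1023.5. After conversion the members took 30.2% ± 2.51 (SD, n = 4) of the converted total at the 8-cell stage, 27.9% ± 2.04 (SD, n = 3) at the 16-cell stage and 30.6% ± 2.19 (SD, n = 5) at the 32-cell stage. The r between their summed share and the converted total was -0.52 and rho -0.45. This sum still holds the 6 members at the limit, which conversion cannot restore. They took 6.87% to 12.5% of a converted total, and 1 by 1 their r lay between -0.80 and -0.38. The r of the other members' sum was not computed after conversion. A negative r was left in 56 of 121 members (46.3%), beside 29.4% of the 429 less abundant gene models and 41.6% of all tested. The median r was 0.02 in the members, 0.12 in the 429 and 0.06 in all tested. The median ratio between the deepest and the shallowest embryo rose to 1.42, 1.81 and 1.72, beside converted totals that differed 1.56-, 1.70- and 1.75-fold. It was thus still below the ratio of the totals for the 8- and 32-cell embryos, and above it for the 16-cell embryos. The most frequent lowest stage of the members also changed, to the 8-cell stage in 52, the 32-cell stage in 41 and the 16-cell stage in 28. Only 51 of the 121 members kept both their highest and their lowest stage.

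The stage ratio of most members was larger after conversion, in 88 of 121, and its median went from 1.19 to 1.23. It stayed under 1.5 in 108 members. The other 13 left the range, with converted ratios from 1.51 to 1.75, and 7 of them were highest and 4 lowest at the 8-cell stage. Of the members at the upper edge, gene model 21360 had a converted ratio of 1.75, gene model 220905 of 1.72 and gene model 225392 of 1.51. Gene model 153047, the tenth by CPM, went from a ratio of 1.25 to 1.56, with converted levels of 3274, 4877 and 5094 CPM at the 3 stages in order. Gene model 148561, named here after its values were seen, went from 1.37 to 1.73, with converted levels of 2269, 3810 and 3927 CPM. Gene model 90919 went from 1.40 to 1.67, with converted levels of 3906, 2661 and 2336 CPM. In the 6 members at the limit the converted ratio lay between 1.12 and 1.48, and it depends on single UMIs.

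**Figure D4:**
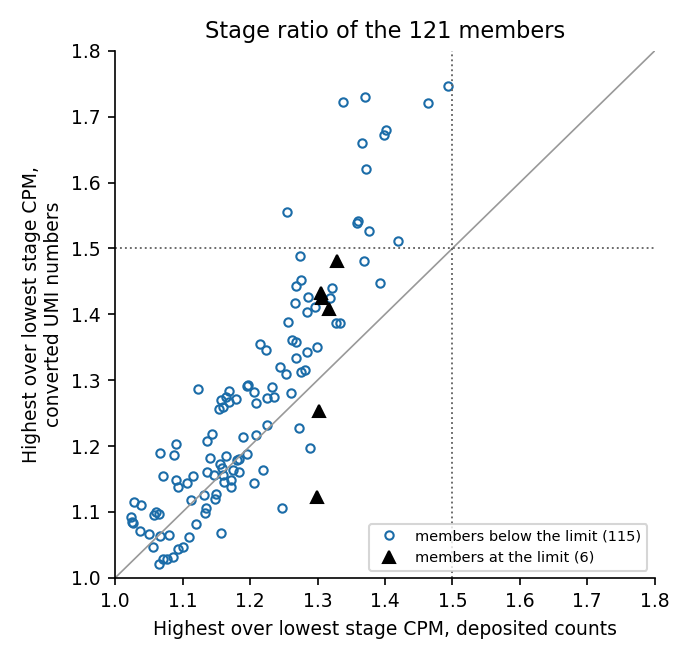
Highest over lowest stage CPM of each of the 121 members in deposited counts (horizontal axis) and in converted UMI numbers (vertical axis). The gray line marks equal values, the dotted lines the ratio limit of 1.5, and the triangles the 6 members at the UMI limit. In 88 members the point lies above the gray line, and 13 points lie above the horizontal dotted line.

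In proportion to the mean, embryos of the same stage differed little in the level of most members. The spread was measured as the coefficient of variation (CV), the SD over the mean of the CPM of the embryos of a stage, pooled over the stages. Its median over the members was 0.106, with a range from 0.0617 to 0.374, and 51 members were under 0.1. The median was 0.116 among the 429 less abundant gene models with a mean count of at least 128, 0.118 among the 10 gene models above 512 that were no members, and 0.453 among all tested. Counting error shrinks as counts grow, so these groups of gene models are not on an equal footing. A measure against counting error does not rank the groups either, since at an equal CV it grows with the count. The squared deviations of the members within stages, over those that counting error alone would give, had a median ratio of 4.97. The median was 4.62 in the 10, 2.50 in the 429 and 1.25 in all tested, and 0 members were under 1.

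Members with the smallest CV were gene models 53734 (0.0617), 220822 (0.0645) and 183334 (0.0678). Gene model 53734 had counts of 365, 491, 567 and 434 in 8-cell, 349, 497 and 527 in 16-cell and 346, 506, 410, 388 and 310 in 32-cell embryos. These counts follow the totals, and its CPM was 1359 ± 113 (SD, n = 4), 1121 ± 53 (SD, n = 3) and 1252 ± 59 (SD, n = 5). Gene model 220822 had counts of 407, 398, 525 and 398, then 374, 478 and 609, then 331, 490, 391, 380 and 275. Its CPM was 1272 ± 113 (SD, n = 4), 1188 ± 54 (SD, n = 3) and 1188 ± 58 (SD, n = 5), and its stage ratio was 1.06. Gene model 183334 was as even within stages but not between them, at 1219 ± 86 CPM (SD, n = 4), 918 ± 62 (SD, n = 3) and 971 ± 64 (SD, n = 5).

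The largest spreads had a different form. Gene model 139082 had the highest CV, 0.374, and the lowest CPM of all members. It had counts of 245, 337, 241 and 242 in 8-cell, 461, 296 and 296 in 16-cell and 282, 606, 412, 204 and 150 in 32-cell embryos. Only 32-cell replicate 2 was above 512, and the counts of the 5 embryos of that stage covered the whole range of the 12. Its lowest count, 150, was in 32-cell replicate 5, the smallest library. In CPM the range was not covered in this way, since 8-cell replicate 3 was lower than any 32-cell embryo. Gene model 90919 had the next CV, 0.207, with 815, 733, 889 and 825, then 429, 896 and 758, then 556, 580, 724, 516 and 596. The third was gene model 218805 at 0.201, and here the spread is that of the totals, since a count equal in every embryo would have a CV of 0.202 in CPM. In the 6 members at the limit the CV lay between 0.192 and 0.201.

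**Figure D5:**
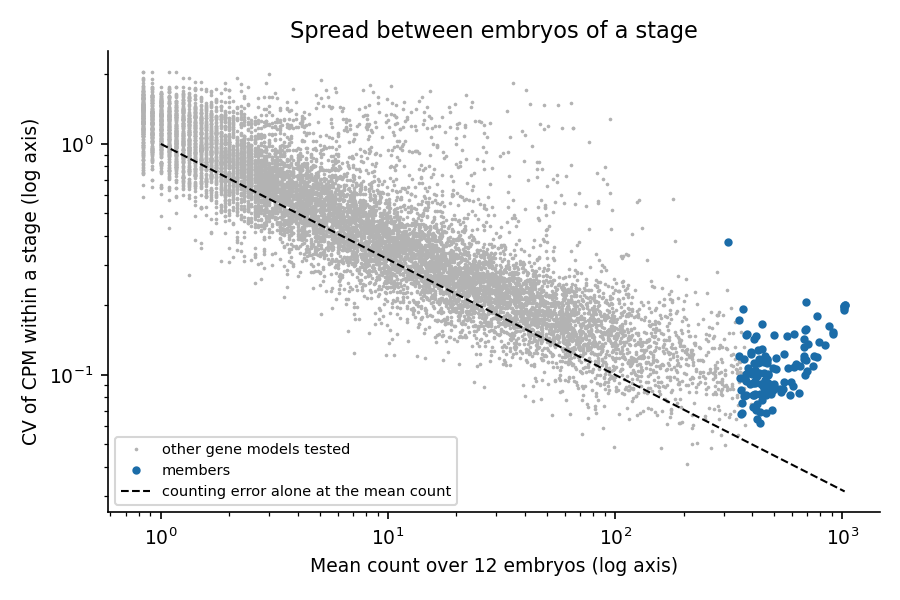
CV of the CPM within a stage (vertical axis, log scale) against the mean count over the 12 embryos (horizontal axis, log scale) for the 121 members in blue and the other gene models tested in gray. The dashed line is the CV that counting error alone gives at the mean count. All members lie above the line, most of them near 0.1, the CV rises again toward the UMI limit at the right, and the single high point is gene model 139082 at 0.374.

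Conversion changed the spread less than it changed the relation to depth. The median CV of the members was 0.110 after conversion, and it rose in 85 of 121. In gene model 153047 the CV went from 0.135 to 0.0653.

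The 10 gene models above 512 that did not meet the ratio limit fell into separate kinds. In 5 of them the 8-cell stage was highest with ratios from 1.53 to 2.01, and in gene models 176161 and 151312 it was lowest, with ratios of 1.72 and 2.13. Gene model 222506 had counts of 0 to 7 in 8-cell, 12, 13 and 27 in 16-cell and 346 to 544 in 32-cell embryos. In the rest a single embryo stood far above the others. Gene model 106226 had 635 in 8-cell replicate 3 against 10 to 41 elsewhere. Gene model 225110 had 808 in 32-cell replicate 3 against 15 to 58 elsewhere. No member had such a pattern, since the lowest member count in any embryo was 150. A narrow stage ratio was common among abundant gene models, with 92.4% of those above 512 and 78.8% of the 429 less abundant ones under 1.5.

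Positions were read from the annotation of the Capca1 assembly, which matched 120 of 121 members by number and gives starts and ends with no scaffold name. The span from start to end had a median of 2354 bases in the members, between 294 and 14050, compared with 2891 bases in the gene models tested. Of the members at the limit, gene model 218805 runs from 355 to 7285, 228595 from 10567 to 12149, 219056 from 6388 to 7089, 143553 from 5879 to 6202, 204161 from 383 to 1030 and 183463 from 5415 to 6113 on their scaffolds. A start within the first 1000 bases of a scaffold was found in 11 members (9.17%), compared with 4.35% of the gene models tested. Whether each of these is exonic or carries an untranslated region is not stated in the sources used here.

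Several members followed each other in the order of the annotation, which is taken here to mean the same scaffold where the coordinates rise. Gene models 143553 and 228675, the fourth and the ninth by CPM, lie 291 bases apart. Gene models 152815 and 171335 adjoin with 0 bases between them. Gene model 90919 starts 6272 bases after the end of 219056. Gene models 183463 and 228595, both at the limit, are 4453 bases apart with 1 gene model between them, 142974, which had a summed count of 1877 and at most 291 in an embryo. Neighboring models that belong to 1 transcript or share reads would be counted apart, and this was not tested. Of the 33 TGF-β signaling components that the study followed, 32 were in the table and 0 were members, and the highest count of any of them was 149.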

How the data were processed

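The authors sequenced single embryos by CEL-Seq with polyadenylated RNA, split reads by barcode, aligned them by Bowtie2 to the genome of *C. teleta* and obtained UMI counts from an HTSeq script. Their methods state that UMI numbers were then converted to transcript counts. The deposited counts are whole numbers with a maximum of 1024, and 3259 of 149705 nonzero counts (2.18%), and 38.1% of those of the members, are numbers that no conversion with 1024 UMIs gives, so they were used as unconverted, unnormalized UMI counts. The deposited CPM values equal count times 1000000 over the embryo's total, to a relative deviation of 4.84e-10, and were not needed. A deposited table of the authors' DESeq2 test holds fold changes and p-values and was not used. There were 0 columns of other samples, 0 rows naming no gene and 0 rows of the ERCC spike-ins that the protocol added.

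Members and lists were chosen with earlier results of these data known. Gene models with at least 10 summed counts were tested in R 4.3.3 with edgeR 4.0.16 (TMM, quasi-likelihood F test, all 12 embryos, no block, adjustment over all 11854). SEs of log2 fold changes were derived from F. The script was tested on simulated counts drawn without the UMI limit, which leaves its behavior near the limit unexamined. DESeq2 1.42.0 served as an alternative, and Python 3.11.15 with scipy 1.17.1 was used for the rest. Counts were converted by n = -K ln(1 - u/K), K = 1024. The comparison of the deepest with the shallowest embryo, the member-by-member correlations and the runs without members at the limit were added after seeing the data.

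Gene models were named if among the 10 highest by CPM, at the limit, among the 3 lowest or 3 highest by CV, or among the 3 nearest to each threshold. Exceptions are the gene models nearest below the count threshold, those over it that were no members, gene models 148561 and 142974, and neighbors in the annotation. Functional lists and promoter motifs were planned, and could not be built because the annotation used here holds no product names or sequences. Total counts per embryo bear on the values through counting error and, near the UMI limit, through the limit itself.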

Additional observations from a re-analysis of the deposited data

Results flagged for a closer look

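In 50 groups of 4 or 5 embryos, formed by the 8- and 32-cell stages of the 24 gene models named by the rule and of the members' summed share, 2 held an embryo far from the others. Chance alone marks about 1 group in 20. Gene model 219719 measured 2132 CPM in 8-cell replicate 3, compared with 2761 to 2843 CPM in the other 8-cell embryos. That embryo has the largest total of its stage and was the lowest of its stage in 77 of 121 members. Gene model 21877 measured 1310 CPM in 32-cell replicate 3, compared with 1024 to 1079 CPM in the other 32-cell embryos, and this embryo has a total of 327571, next to the largest of its stage. The 16-cell stage, with 3 embryos, was not examined in this way.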

How the results depend on the processing

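The number of members follows the thresholds. It was 342 with a count threshold of 256, 30 with 768, and 64 with a ratio limit of 1.2. It lay between 111 and 122 with each embryo left out, and 94 members were found in all 12 of these runs. Members called across the stages numbered 11 (9.09%, beside 17.2% of all gene models tested). They numbered 25 at a threshold of 0.1 (beside 23.5% of all), 23 with filterByExpr (beside 30.8%) and 23 with no filter (beside 11.3%). On converted UMI numbers there were 26 (beside 17.6%), and 26 with the DESeq2 likelihood ratio test (beside 13.3%). With 1 embryo left out there were 8 to 19, beside 13.2% to 17.4% of all. Members called between the 8- and 16-cell stages numbered 12 (beside 9.46%), and 19 with DESeq2's Wald test (beside 7.03%). With 1 embryo left out they numbered 4 to 19, beside 6.38% to 9.88% of all. Between the 16- and 32-cell stages they numbered 0 (beside 2.21%), 6 with no filter (beside 2.05%) and 1 on converted UMI numbers (beside 2.24%). With 1 embryo left out they numbered 0 to 1, beside 1.73% to 2.28% of all. Between the 8- and 32-cell stages they numbered 15 (beside 20.1%), and 24 with filterByExpr (beside 34.5%). There were 29 on converted UMI numbers (beside 20.1%) and 23 with DESeq2's Wald test (beside 14.8%). With 1 embryo left out they numbered 10 to 26, beside 15.5% to 20.6% of all. Whether the share of members is above or below that of all gene models thus changes with these choices. The causes were not tested.

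With the replicate number as a replicate block, 8 members (6.61%) were called across the stages, beside 15.6% of all gene models tested. Between the 8- and 16-cell stages 5 (4.13%) were called, beside 8.89% of all. The number was 0 between the 16- and 32-cell stages, beside 2.13%, and 8 (6.61%) between the 8- and 32-cell stages, beside 16.8%. Over all gene models tested, the deviations of same-numbered embryos of different stages had an r from -0.07 to 0.06 in 10 pairs. Over the members alone r ranged from -0.18 to 0.60, and it was 0.26, 0.38 and 0.60 in the 3 pairs of 8- and 16-cell embryos. Pairs with other numbers ranged from -0.57 to 0.43 over the members. At both the 8- and the 16-cell stage replicate 1 had the smallest total and replicate 3 the largest. For replicates 1 and 3 the number and the depth therefore cannot be told apart. Replicate 2, the pair with an r of 0.38, was not alike in depth. Its total was 328480 at the 8-cell stage, beside a stage mean of 343442. At the 16-cell stage it was 422373, beside a stage mean of 409154. The labels give the number only, and it was not taken as a pairing.

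The members' mean share of the counts was 18.5%, and 29.6% after conversion and 16.7% without the 6 members at the limit. The r between the members' summed CPM and the total was -0.93 and became -0.52 after conversion, both with the 6 members at the limit included. The median CV and the number of members under a ratio of 1.5 after conversion moved by less than 1.5 times under every alternative tried. Of 120 alternative values for the 24 named gene models, 6 moved, all 6 on conversion. A stage ratio was said to move if it changed by more than the spread between embryos. For a CV the limit was a change of 1.5 times, and the CV of gene model 153047 was among the 6.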
